A study of Danio rerio with 6 samples.

Results

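The 8 genes described here belong to the cortisol response of the zebrafish (Danio rerio) or answer to related signals, and they are ddit4, tsc22d3, txnipa, fkbp5, klf9, nr3c1, nr3c2 and hsd11b2. They were looked up by symbol, and all 8 were found among the 31452 genes of the deposited files. The set was selected on the difference between morphants and controls in these same libraries, known beforehand for some of the genes, together with what the genes do. The differences of the 8 genes are therefore given as descriptions, without a test.

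The libraries were made from total RNA of whole embryos at 4 days post fertilization, with 10 embryos pooled in each. In 3 libraries the embryos had been injected with a control morpholino, and in the other 3 with one directed at splicing of the glut12 transcript (morphants). Morpholinos are synthetic antisense molecules that pair with RNA, so the morphants are a knockdown model in which every tissue of the embryo is exposed, and the labels used here name no strain or clutch. The gene glut12, listed as slc2a12, encodes a sugar transporter, and the study's title links its loss to heart failure and a diabetic phenotype.

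Cortisol, the main glucocorticoid of fish, enters cells and binds the glucocorticoid receptor, encoded by nr3c1, or the mineralocorticoid receptor, encoded by nr3c2. Both are transcription factors held ready by heat shock protein complexes until hormone binds. The enzyme encoded by hsd11b2 oxidises cortisol to inactive cortisone. Bound glucocorticoid receptor raises fkbp5, whose product is a co-chaperone that lowers the receptor's affinity for hormone, and klf9, which encodes a zinc finger transcription factor. It also raises tsc22d3, whose product, known in mammals as GILZ, restrains inflammatory transcription factors. In mammals ddit4 (REDD1) and txnip are raised by glucocorticoids and by other signals as well. The ddit4 product inhibits the growth kinase complex mTORC1, and the txnip product binds thioredoxin and lowers glucose uptake by promoting the internalisation of glucose transporters.

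The values are read counts per gene that the authors had divided by a factor for each library and rounded, called normalised read counts below. Their totals were 11762915, 11449397 and 11065259 in controls 1, 2 and 3, against 10744090, 10397713 and 10543839 in morphants 1, 2 and 3. Every control total was thus above every morphant total. Statements below that all morphants lay below or above all controls are on this deposited scale. The depths estimated from the totals lay between 7550000 reads in control 1 and 15200000 in morphant 1. Among controls the first was the least like the rest, with correlations across 15942 genes of 0.961 and 0.955 with controls 2 and 3 on the log2 scale, against 0.987 between those. Genes are not independent replicates. The targeted gene slc2a12 was at 160, 145 and 143 in controls, against 98, 97 and 90 in morphants. A splice block need not lower a read count. Of 40 markers for 11 cell types of the embryo, 39 were found and 37 were above 0 in every library. The exceptions were the ACTH receptor gene mc2r and the steroid synthesis gene cyp11a1, both markers of interrenal cells. Summed markers of trunk muscle were at 127989 to 142600 in controls and 96849 to 120975 in morphants, and those of lens at 15039 to 19152 and 10891 to 12306. The sums of the other 9 cell types, which the most abundant markers dominate, overlapped between the groups. Taken singly, 14 of the 39 markers lay lower in every morphant than in every control and 3 lay higher. Over all tested genes the shares were 10.2% lower and 11.6% higher. The lower markers included 3 of the 4 skin markers, with morphant means differing by -31.4% for krt5, -33.5% for cyt1 and -30.3% for epcam, and the liver marker tfa, at -31.7%. Neuron markers went both ways, with snap25b and stmn2a lower and elavl3 higher in all morphants. For elavl3, control 1 was at 737, against 1897 and 2106 in controls 2 and 3 and 2310 to 2531 in morphants. For stmn2a the nearest libraries were control 2, at 2219, and morphant 1, at 2193. In whole embryos, fewer cells of a type and less RNA per cell cannot be told apart, and the part of any cell type in the differences below was not tested.

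In every morphant ddit4, tsc22d3 and txnipa lay lower than in every control and nr3c2 lay higher, and the other 4 genes overlapped between the groups. The morphant mean differed from the control mean by -48.1% for ddit4 and by -22.2% for both tsc22d3 and txnipa. Well-known targets of the glucocorticoid receptor, fkbp5 and klf9, did not share that pattern. Their means differed from controls by -3.79% and 62.1%, and both varied widely among the 3 morphant libraries. In all, 4 of the 8 genes did not overlap between groups, where 21.8% of the 26082 genes tested did not. Nothing is read from this count, since the genes were chosen with the contrast known. The count was 4 to 6 with any 1 library left out, when 7253 to 9181 of all tested genes did not overlap, against 5690 with all libraries. It was 4 without control 1 (7355 of all tested genes) and 6 without morphant 1 (9181).

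**Figure D1:**
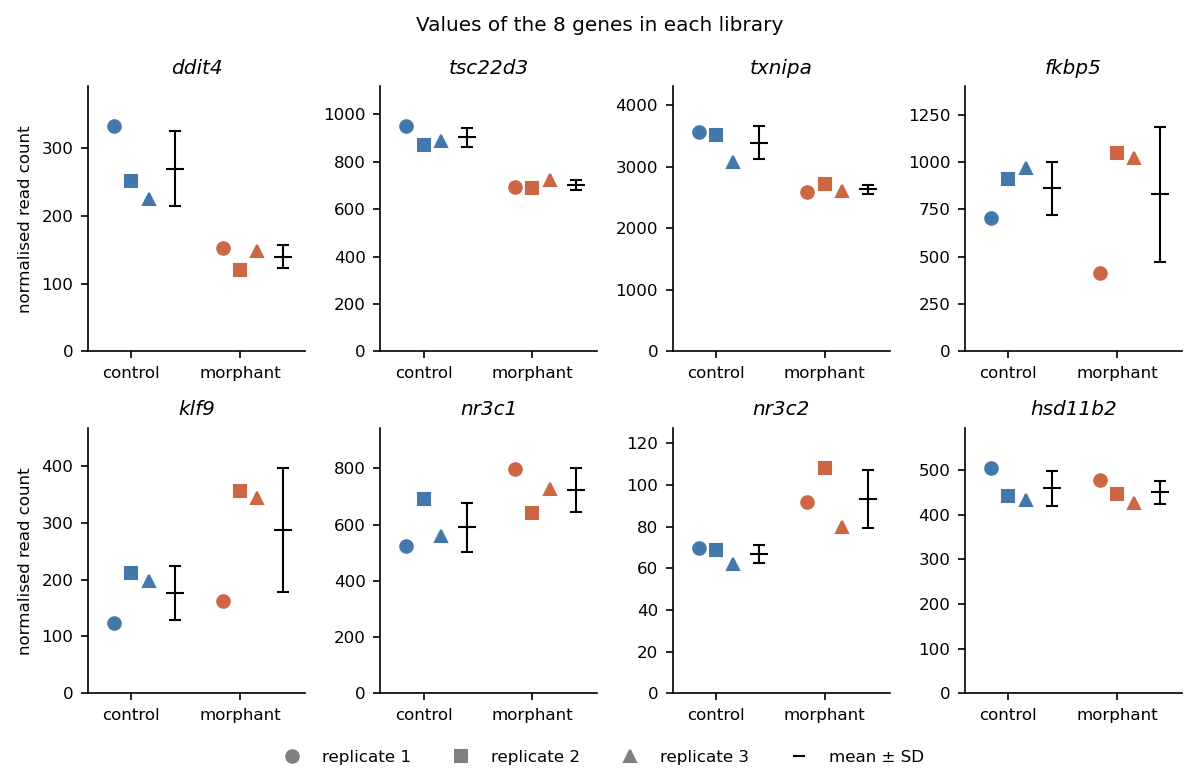
Normalised read counts (vertical axes, each starting at 0) of the 8 genes in the 3 control and 3 morphant libraries. Each point is 1 library of 10 pooled embryos, its shape gives the replicate number, and bars give the mean ± SD (n = 3 per group). Morphants lie below all controls for ddit4, tsc22d3 and txnipa and above them for nr3c2, and morphant 1 lies far below the other morphants for fkbp5 and klf9.

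Of the 3 genes lower in morphants, ddit4 (chromosome 12 of the Zv9 build, ENSDARG00000037618) differed most. It was at 332, 252 and 225 in controls 1, 2 and 3, against 152, 120 and 148 in morphants 1, 2 and 3. Values of other genes are given in the same order. The lowest control was 73 above the highest morphant. Control 1 was the highest library, at 1.39 times the mean of the other controls. Group means were 269.7 ± 55.6 and 140.0 ± 17.4 (SD, n = 3 per group). The log2 fold change, morphant minus control, was -0.93 ± 0.17 (SE) on the scale of log2 (value + 1), and -0.77 without control 1. Among the 15942 tested genes with a mean of at least 50, 54 had a log2 fold change at least as low, ddit4 itself included. Nothing is read from this rank, since the members were chosen with the contrast known.

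The gene tsc22d3 (chromosome 14, ENSDARG00000075666) was at 949, 870 and 889 in controls, against 695, 688 and 725 in morphants. This was the tightest of the 8 genes within morphants apart from txnipa, with a coefficient of variation of 2.8%, against 4.57% in controls. The groups were 145 apart. On the log2 scale it differed by -0.36 ± 0.08 (SE, n = 3 per group), between -0.39 and -0.32 with any 1 library left out. Of the 15942 genes, 1020 were at least as low, tsc22d3 itself included. Nothing is read from this rank either, for the same reason.

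The gene txnipa (chromosome 19, ENSDARG00000036107) was covered by the most reads of the 8, an estimated 2287 to 3772 a library. Levels of different genes are not compared, since gene lengths were not at hand. It was at 3563, 3515 and 3082 in controls, against 2582, 2718 and 2607 in morphants. The lowest control lay 364 above the highest morphant. The log2 fold change, -0.36 ± 0.08 (SE, n = 3 per group), was the same as that of tsc22d3 to 2 decimals. Scaling the libraries to equal totals shifted the median gene by 0.11, and the log2 fold changes were then -0.25 for both genes and -0.82 for ddit4.

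**Figure D2:**
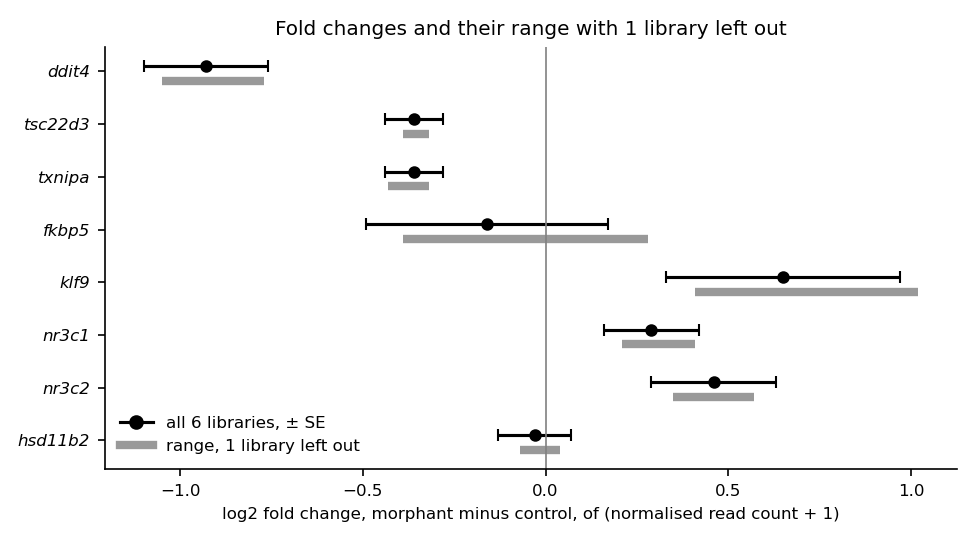
Log2 fold change of each of the 8 genes (horizontal axis, morphant minus control, on the log2 scale of value + 1). Points with bars are the estimates from all 6 libraries ± SE, and grey bands give the range of the estimate when any 1 library is left out. The band of fkbp5 runs from -0.39 to 0.28 and that of ddit4 from -1.05 to -0.77.

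The receptor targets fkbp5 and klf9 were set apart by morphant 1. The gene fkbp5 (chromosome 6, ENSDARG00000028396) was at 704, 911 and 970 in controls, against 416, 1049 and 1022 in morphants. Morphant 1 was the lowest of all libraries, while morphants 2 and 3 were the highest. The value in morphant 1 was 0.402 times the mean of the other morphants, a ratio that 0.464% of the 15942 genes matched or undercut. Morphant 1 and this ratio were picked with the values in view, so such shares, here and below, are descriptions only. The log2 fold change came to -0.16 ± 0.33 (SE, n = 3 per group), and 0.28 without morphant 1, so its direction turned on that library.

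The gene klf9 (chromosome 5, ENSDARG00000068194) was at 123, 211 and 197 in controls, against 162, 355 and 344 in morphants. Control 1 was lowest, and morphant 1 lay among the controls while morphants 2 and 3 lay above all of them. Morphant 1 stood at 0.464 times the mean of the other morphants, a ratio matched or undercut by 0.721% of the genes. For klf9 the log2 fold change came to 0.65 ± 0.32 (SE, n = 3 per group), 1.02 without morphant 1 and 0.41 without control 1. Control 1 was also the lowest control for fkbp5, at 0.749 times the mean of the other controls, and for klf9 this ratio was 0.603.

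For ddit4, tsc22d3 and txnipa morphant 1 was close to its group, at 1.13, 0.984 and 0.97 times the mean of morphants 2 and 3. The low values of fkbp5 and klf9 in morphant 1 therefore had no counterpart in these genes. The deposited total of morphant 1 was within the range of the other libraries and its estimated depth was the highest. Summed markers of 4 of the 11 cell types were lowest of all libraries in morphant 1, as fkbp5 was, while klf9 was lowest in control 1. Those of exocrine pancreas were at 3522 there, against 8650 and 12267 in morphants 2 and 3, and those of gut epithelium at 2841, against 4054 and 4933. Ionocyte markers were at 9913, against 11666 and 11832, and lens markers at 10891, against 12306 and 12142. For ionocytes this was just below the controls, at 10044 to 10469, and for lens all morphants lay below all controls. Their part in the values of fkbp5 and klf9 was not tested.

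Both receptor genes had higher means in morphants. The glucocorticoid receptor gene nr3c1 (chromosome 14, ENSDARG00000025032) was at 524, 689 and 559 in controls, against 797, 641 and 725 in morphants. Control 2 lay above morphant 2, so the groups overlapped. Means were 591 ± 86.9 and 721 ± 78.1 (SD, n = 3 per group), with a log2 fold change of 0.29 ± 0.13 (SE). That value was 0.14 with library weights estimated by limma, which gave control 1 the least weight.

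The mineralocorticoid receptor gene nr3c2 (chromosome 1, ENSDARG00000037025) was at 70, 69 and 62 in controls, against 92, 108 and 80 in morphants. All morphants lay above all controls, by a gap of 10 between the nearest libraries. The log2 fold change came to 0.46 ± 0.17 (SE, n = 3 per group), and between 0.35 and 0.57 with any 1 library left out. It was covered by the fewest reads of the 8 genes, an estimated 45 to 150 a library, which makes its counting error the largest of them.

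The cortisol-inactivating enzyme gene hsd11b2 (chromosome 7, ENSDARG00000001975) was at 503, 441 and 432 in controls, against 477, 447 and 426 in morphants. The groups lay over each other, with means of 459 ± 38.7 and 450.0 ± 25.6 (SD, n = 3 per group). The log2 fold change was -0.03 ± 0.10 (SE), and 0.09 with equal library totals, so no direction can be given for it.

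In addition 6 lists of related genes, 131 genes in all and none of them among the 8, were set beside these values. Of the 118 that were found and passed the filter on low values, 0 passed an adjusted p of 0.05 over all genes in limma with Benjamini-Hochberg adjustment, where 0.023% of all tested genes did. Past an unadjusted limma p of 0.05 were 13 higher and 16 lower genes, where 8.99% and 6.93% of all tested genes were higher and lower. With equal library totals this split was 25 to 8 in the lists and 3793 to 795 over all tested genes. In these lists 18 genes had all morphants above all controls and 19 had all below, and the shares over all tested genes were 11.6% and 10.2%. The median log2 fold change of the 118 genes was 0.02, and that of all tested genes was 0.00. Voom in limma on estimated reads also called 0 list genes. With library weights limma called 4, namely pdk2, pdk4, rictora and klf13, of which the first 3 were picked with their values in view. Over all 26082 tested genes that setting called 217 higher and 112 lower, far more than without weights.

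**Figure D3:**
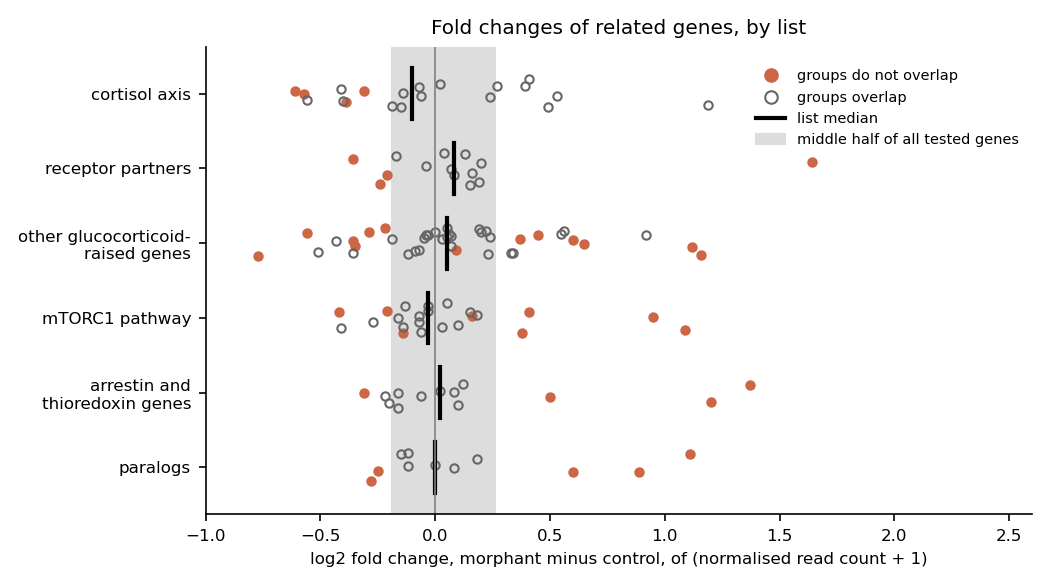
Log2 fold changes (horizontal axis, morphant minus control, on the log2 scale of value + 1) of the related genes that passed the filter, 1 point per gene, in 6 lists. Filled points are genes whose morphants all lay on one side of all controls, vertical bars are list medians, and the grey band runs from -0.19 to 0.26, the quartiles of all tested genes. The list medians lie between -0.10 and 0.08, inside that band.

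Genes of the cortisol axis, from the pituitary hormone precursor to the steroid enzymes, mostly rested on few reads. Of 23 in the list, 21 were found and 20 were tested, with a median log2 fold change of -0.10. That median was 0.01 with equal library totals and -0.01 with library weights, so it moves with the processing. None passed the adjusted threshold in limma. At an unadjusted limma p of 0.05 there were 0 higher and 3 lower, or 0 and 2 with equal library totals. Over all tested genes 8.99% were higher and 6.93% lower at that p. In 4 of the 20 all morphants lay below all controls and in 0 above, where the shares over all tested genes were 10.2% and 11.6%. The 4 were pomca, star, cyp11c1 and crhbp, the last of which encodes a binding protein for the releasing hormone and was picked with its values in view.

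The ACTH precursor gene pomca was at 79, 78 and 85 in controls, against 67, 58 and 70 in morphants. The gene star, whose product carries cholesterol into mitochondria for steroid synthesis, was at 76, 65 and 58 in controls, against 52, 39 and 42 in morphants. The last enzyme of cortisol synthesis is encoded by cyp11c1, which was at 164, 102 and 126 in controls, against 76, 97 and 79 in morphants. Their log2 fold changes were -0.31 ± 0.16, -0.57 ± 0.20 and -0.61 ± 0.20 (SE, n = 3 per group). In the values as deposited all 3 were below the controls in every morphant, and none was called in limma. For cyp11c1 the nearest libraries were control 2, at 102, and morphant 2, at 97. With equal library totals the log2 fold changes, in the same order of genes, were -0.20, -0.46 and -0.50. They were -0.33, -0.47 and -0.44 without control 1, and -0.35, -0.60 and -0.39 with library weights.

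Other axis genes overlapped between groups. Of the 20 tested, 8 had a positive and 12 a negative log2 fold change, and 10 and 10 with equal library totals. Those above 0 included the steroid synthesis gene fdx1b, at 0.39 ± 0.26, and nr5a1a, at 0.41 ± 0.33 (SE). Both were picked with their values in view. The steroid hydroxylase gene cyp17a2 was at 134, 141 and 146 in controls, against 93, 143 and 156 in morphants, the low value being morphant 1. The cortisone-reducing enzyme gene hsd20b2, used in cortisol breakdown, had means of 187 ± 43.1 and 141.7 ± 35.0 (SD). The releasing hormone gene crhb ranged from 41 to 81 in controls and from 36 to 76 in morphants. For mc2r, the ACTH receptor gene, 4 of the 6 libraries were at 0 and the others at 1, so no level could be measured at this depth.

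The chaperones, immunophilins and coregulators that work with the receptor gave a median log2 fold change of 0.08 over 14 genes. None passed the adjusted threshold in limma. At an unadjusted limma p of 0.05 there were 1 higher and 2 lower, where 8.99% and 6.93% of all tested genes were. With equal library totals there were 5 and 1. The receptor chaperone gene hsp90ab1 was at 34324, 32583 and 29530 in controls, against 28769, 26456 and 28148 in morphants. Its morphants lay just below its controls (log2 fold change -0.21 ± 0.10, SE, n = 3 per group, and -0.10 with equal library totals). The closest relative of fkbp5 in this complex is fkbp4, whose product favours movement of the receptor to the nucleus. It was at 1018 ± 88.9 and 1075 ± 24.8 (SD), with overlapping groups. The coactivator gene ncoa2 and the corepressor gene ncor1 overlapped too, with log2 fold changes of 0.16 ± 0.09 and 0.20 ± 0.13.

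A list of 42 other genes that glucocorticoid raises in fish or mammals held genes that lay higher and genes that lay lower in all morphants. Of the 40 tested, 24 had a positive and 16 a negative log2 fold change, and the median was 0.05. With equal library totals the split was 29 to 11, and 17015 to 9067 over all tested genes, so it moves with the scaling. In limma 0 passed the adjusted threshold. At an unadjusted limma p of 0.05 there were 6 higher and 7 lower, where 8.99% and 6.93% of all tested genes were. With equal library totals there were 9 and 4. In 7 genes all morphants lay above all controls, and in 6 all lay below. The shares of all tested genes were 11.6% above and 10.2% below.

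Among the transcription factor and clock genes of this list, per1a and per1b, both encoding period repressors, had higher means in morphants. The gene per1a was at 279, 293 and 282 in controls, against 235, 421 and 470 in morphants. Morphant 1 was again the lowest library, at 0.527 times the mean of the other morphants, which 1.17% of the genes matched or undercut. The gene per1b was at 874, 1077 and 1072 in controls, against 1171, 1332 and 1411 in morphants, with no overlap. The zinc finger factor gene klf15 was at 132, 227 and 233 in controls, against 273, 306 and 291 in morphants, also with no overlap, and its log2 fold change of 0.60 ± 0.21 was 0.33 without control 1. For zbtb16a, another zinc finger factor gene, control 1 was at 19 and the other libraries between 70 and 106. Its log2 fold change of 0.92 ± 0.51 was 0.23 without control 1.

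Of the signalling genes of the list, some lay lower in all morphants and others overlapped. The NF-kappa-B inhibitor gene nfkbiaa was at 237, 163 and 140 in controls, against 122, 115 and 119 in morphants, with a log2 fold change of -0.56 ± 0.19 that was -0.35 without control 1. The MAP kinase phosphatase gene dusp1 was at 594, 485 and 452 in controls, against 415, 427 and 402 in morphants. In both, every morphant lay below every control in the values as deposited, and the morphants were close together. For dusp1 the log2 fold change of -0.29 ± 0.12 was -0.18 without control 1, and also -0.18 with equal library totals. The kinase gene sgk1 was at 536 ± 40.6 and 509 ± 35.7 (SD), and cebpd, a leucine zipper factor gene, at 626 ± 172 and 628 ± 23.7, with overlap in both.

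Of the metabolic targets, the glutamine synthetase gene glula was at 4003, 3655 and 3305 in controls, against 2784, 2692 and 3037 in morphants, without overlap. This gave a log2 fold change of -0.36 ± 0.09 (SE, n = 3 per group), as for tsc22d3 and txnipa. The gluconeogenic enzyme gene pck1 was at 2409, 1623 and 1867 in controls, against 1102, 1334 and 1720 in morphants. Morphant 3 reached into the control range. The lipase inhibitor gene angptl4 (796 ± 117 and 741 ± 15.6, SD) and the ubiquitin ligase gene fbxo32 (45 ± 9.64 and 45 ± 9.54) overlapped. The pyruvate dehydrogenase kinase gene listed as pdk2, which was picked with its values in view, was at 249, 195 and 163 in controls, against 258, 584 and 547 in morphants. Morphant 1 was the lowest morphant for it as for fkbp5 and klf9, at 0.456 times the mean of the other morphants, but lay above all controls. Some genes of the list went the other way in morphant 1. There mt2 was at 633, against 232 and 336 in morphants 2 and 3, and socs3b at 357, against 221 and 246. Both were picked with their values in view.

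**Figure D4:**
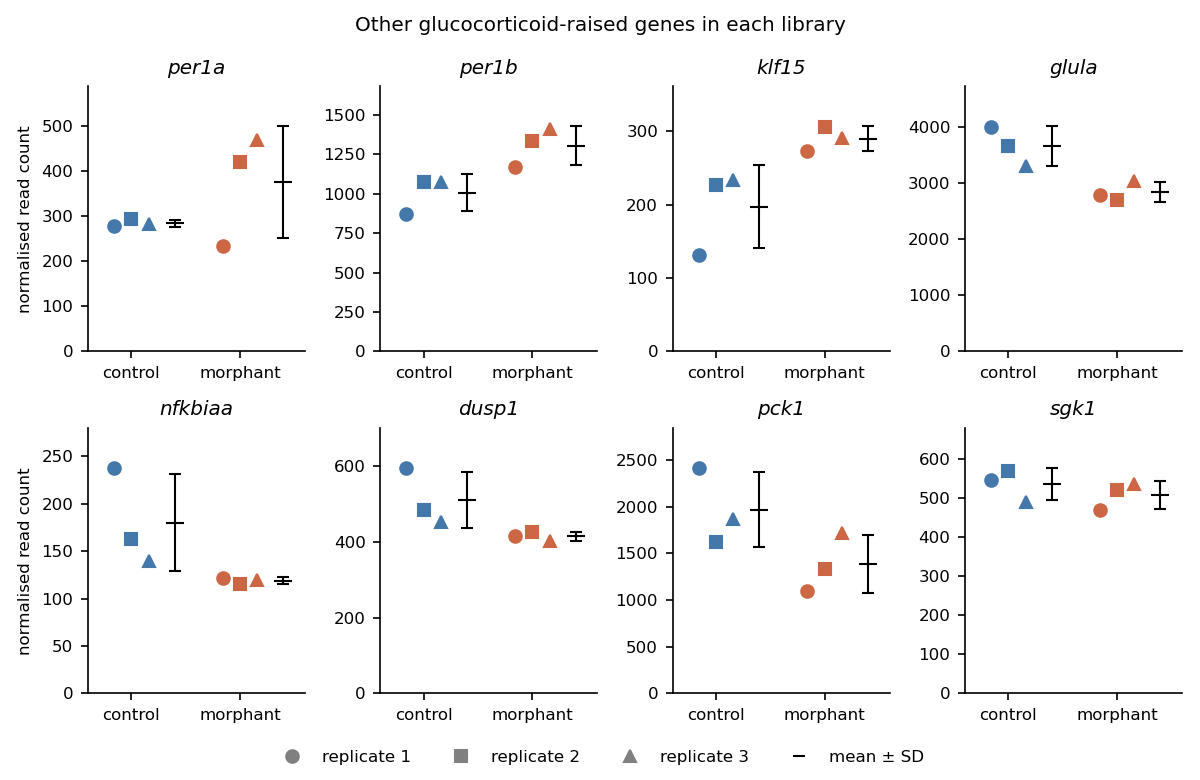
Normalised read counts (vertical axes, each starting at 0) of 8 other genes that glucocorticoid raises, in the 3 control and 3 morphant libraries. Each point is 1 library, its shape gives the replicate number, and bars give the mean ± SD (n = 3 per group). The gene per1a is low in morphant 1 (235) and high in morphants 2 and 3 (421 and 470), while glula, nfkbiaa and dusp1 are lower in all morphants.

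Genes of the mTORC1 pathway, which the ddit4 product inhibits through the TSC complex, were listed with rictora and rictorb, genes of the related complex mTORC2. The list was centred near 0. Over the 23 tested the median log2 fold change was -0.03. In limma 0 passed the adjusted threshold. At an unadjusted limma p of 0.05 there were 3 higher (rictora among them) and 1 lower, where 8.99% and 6.93% of all tested genes were. With equal library totals there were 5 and 1. In 5 of the 23 all morphants lay above all controls and in 3 below, where the shares over all tested genes were 11.6% and 10.2%. The kinase gene mtor had means of 1454 ± 83.0 and 1428 ± 99.8 (SD, n = 3 per group) in controls and morphants, and tsc2 at 488 ± 44.4 and 467 ± 12.3. The gene tsc1a was at 234, 411 and 404 in controls, against 414, 435 and 479 in morphants. Its log2 fold change of 0.38 ± 0.21 was 0.12 without control 1.

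Sestrin genes, which like ddit4 encode stress-induced inhibitors of mTORC1, did not share the lower values of ddit4. The gene sesn1 was at 2340 ± 46.6 and 2292 ± 148 (SD), and sesn3 was at 509, 612 and 584 in controls, against 645, 628 and 631 in morphants, all above the controls. Of the translation repressors that mTORC1 phosphorylates, eif4ebp1 had a log2 fold change of -0.21 ± 0.12 and eif4ebp3l of -0.27 ± 0.13. Without control 1 these were -0.08 and -0.15, and with equal library totals -0.10 and -0.16. For eif4ebp2 and eif4ebp3, which were picked with their values in view, it was -0.14 ± 0.08 and -0.42 ± 0.12 (SE). In the values as deposited, all morphants lay below all controls in eif4ebp1, eif4ebp2 and eif4ebp3, while eif4ebp3l overlapped. The lowest control and highest morphant were at 778 and 770 for eif4ebp1, and at 2703 and 2654 for eif4ebp2. For eif4ebp3 they were at 211 and 184. All morphants lay above all controls in sesn3, tsc1a, rictora, ulk1a and ulk1b, the last 3 picked with their values in view. The log2 fold changes of ulk1a and ulk1b were 0.41 ± 0.14 and 0.95 ± 0.31 (SE).

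Among the relatives and partners of txnipa, 13 genes were tested and their median log2 fold change was 0.02. In limma 0 passed the adjusted threshold. At an unadjusted limma p of 0.05 there were 2 higher and 1 lower, where 8.99% and 6.93% of all tested genes were. With equal library totals there were 4 and 0. The second txnip gene, txnipb, was at 491, 435 and 343 in controls, against 402, 352 and 340 in morphants. Its log2 fold change of -0.20 ± 0.14 had the sign of that of txnipa, but the groups overlapped. The difference between both genes was not tested. The alpha-arrestin genes arrdc2, arrdc3a and arrdc3b had log2 fold changes of -0.16 ± 0.11, 0.02 ± 0.11 and 0.12 ± 0.20, all with overlap. The thioredoxin gene txn, whose product txnip binds in mammals, was at 255 ± 28.2 and 220.0 ± 36.0 (SD).

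The glucose-sensing factor MondoA, which raises txnip in mammals, is encoded by mlxip. It was at 16, 41 and 57 in controls, against 69, 119 and 84 in morphants. All morphants lay above all controls, opposite in direction to txnipa. Its log2 difference of 1.37 ± 0.43 (SE, n = 3 per group) was 0.86 without control 1 and was not called in limma.

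Paralogs of the other members differed in direction among themselves, with a median log2 fold change of 0.00 over 11 genes. In limma 0 were past the adjusted threshold. At an unadjusted limma p of 0.05 there were 2 higher and 2 lower, where 8.99% and 6.93% of all tested genes were. With equal library totals there were 4 and 0. The tsc22d3 relative tsc22d2 was at 533, 489 and 529 in controls, against 435, 447 and 425 in morphants. Its groups did not overlap in the values as deposited (log2 fold change -0.25 ± 0.09). The larger relative tsc22d1 overlapped between groups (-0.15 ± 0.10). With equal library totals the log2 fold changes were -0.13 for tsc22d2 and -0.04 for tsc22d1. The klf9 relative klf13 was at 53, 61 and 82 in controls, against 94, 142 and 129 in morphants, where morphant 1 was again the lowest morphant. This was a log2 fold change of 0.89 ± 0.22. The androgen receptor gene ar, of the same receptor family as nr3c1 and nr3c2, was at 14, 63 and 57 in controls, against 71, 86 and 89 in morphants, and its log2 fold change of 1.11 ± 0.50 was 0.44 without control 1.

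The likeness of profiles was measured as the root-mean-square difference over the 6 libraries between log2 values centred on each gene's mean, among 15942 genes with a mean of at least 50. It is a description, as 6 libraries leave many genes close together. By this measure tsc22d3 and txnipa lay 0.075 apart, while ddit4 lay 0.33 and 0.34 from them because its difference was larger. Many genes were closer. Among 15941 other genes, txnipa ranked 202 in nearness to tsc22d3, and tsc22d3 ranked 130 in nearness to txnipa. In nearness to ddit4, tsc22d3 and txnipa ranked 681 and 777. The members were chosen with the contrast known, so nothing is read from their closeness. From tsc22d3, fkbp5 lay 0.48 and klf9 0.68 away.

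The genes nearest ddit4 were nmnat1, zgc:110377, thap3, zgc:153258 and btr30, at 0.087 to 0.15. The nearest, nmnat1, encodes an enzyme of NAD synthesis and was at 223, 195 and 164 in controls, against 111, 78 and 111 in morphants. Nearest to tsc22d3 were gpkow, atp6v1g1, ddx5, naa10 and mt-atp8, at 0.025 to 0.034. The RNA helicase gene ddx5 was at 8953, 7912 and 8216 in controls, against 6490, 6566 and 6480 in morphants. Nearest to txnipa were arpc4l, dhrs7c, slain1a, gpr85 and si:ch73-257c13.2, at 0.031 to 0.036. None of these 15 genes was in the lists above.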

How the data were processed

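The deposited files gave, for each library, a score with no fixed range per Ensembl gene, with its chromosome and symbol. This score is a read count divided by a library factor and rounded. That reading rests on the values and on a last line in each file that reads "size factors" and holds no number. Zv9 was the genome build, per the submitters' processing notes. For the aligner, the counter and strandedness, the sources used here give nothing. The worth of 1 read was estimated from how often low whole numbers were used, and gave the depths.

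Genes at 1 or more in at least 3 libraries were kept (26082, among them all 8 members), and log2(value + 1) was fitted by group alone in limma (version 3.58.1, under R 4.3.3), with a trend of variance on mean and Benjamini-Hochberg adjustment. No test was made of the 8 members. On simulated data 17.3%, 77.9% and 100.0% of genes changed 1.5-, 2- and 4-fold were called at a mean of at least 50. The simulation changed 200 genes in each of 5 runs and gave all genes the same spread beyond counting error. It held no outlying library such as control 1, so these shares need not hold for the real libraries. Members, lists, named genes (all members, list genes picked by role, and the 5 nearest profiles) and tests were chosen with earlier results of these data known. Symbols were matched in the files or through a table of current names, in which 21028 of the 31452 gene IDs were found. The list genes ddit4l, rptor and mlxipl, among others, were not matched and were not analysed here. Whether pools were of separate clutches is not in the labels, and p-values then cover only the spread among the pools at hand, which may be technical. Alternatives were other scalings, filters, pseudocounts and variance models, library weights, a replicate block, each library left out, and voom on estimated reads, which was chosen after the data were seen.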

Additional observations from a re-analysis of the deposited data

How the results depend on the processing

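The log2 fold changes of ddit4, tsc22d3, txnipa, klf9, nr3c1 and nr3c2 kept their sign in all 16 alternatives. With 1 library left out they ranged from -1.05 to -0.77 for ddit4, -0.39 to -0.32 for tsc22d3, -0.43 to -0.32 for txnipa, -0.39 to 0.28 for fkbp5, 0.41 to 1.02 for klf9, 0.21 to 0.41 for nr3c1, 0.35 to 0.57 for nr3c2 and -0.07 to 0.04 for hsd11b2. Equal library totals and voom on estimated reads gave -0.25 and -0.25 for tsc22d3, -0.25 and -0.25 for txnipa, and 0.09 and 0.10 for hsd11b2. Both settings shift all genes, by a median of 0.11 and 0.10. Over all genes, limma called 6 higher and 0 lower. The counts were 10 and 1 with equal totals, 20 and 7 with no filter, 11 and 3 at a mean of at least 10, 2 and 0 with a pseudocount of 0.1, 12 and 1 with a pseudocount of 10, 24 and 6 without the trend, 217 and 112 with library weights, and 8 and 2 with voom. They were 1 to 3 higher and 0 to 1 lower with 1 library left out. The cause of these changes was not tested. With the replicate block the counts were 2 and 0. The block left the log2 fold changes of the members unchanged. It gave an SE of 0.13 for klf9 and 0.20 for fkbp5, against 0.32 and 0.33 without it. For nr3c1 the SE was 0.15, against 0.13. Deviations from the group mean correlated at 0.10, -0.06 and 0.12 between same-numbered libraries, and at -0.23 to 0.21 between the others. With 3 libraries a group, these values cannot show whether the numbers mark pairs. The labels give no batch or pairing, so group alone was fitted. Depth limits what can be said of genes with few reads, such as mc2r, which was at 0 or 1 in every library.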
